A study of Mus musculus with 6 samples.

Results

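The genes described here are 9 genes of the major histocompatibility complex (MHC) class II presentation pathway, H2-Aa, H2-Ab1, H2-Eb1, Cd74, H2-DMa, H2-DMb1, H2-Oa, H2-Ob and Ciita. They were taken by gene symbol from a table of 56941 genes, and each symbol matched 1 row. The table holds read counts from total RNA-seq of FACS sorted HFSCs (hair follicle stem cells, CD34+/α6-integrin+) from the dorsal skin of female mice at postnatal day (PD) 68, when the hair follicles are in the second telogen. There were 3 libraries labelled WT (K14CreER-/-; Dab2 fl/fl) and 3 labelled Dab2-cKO (K14CreER+/-; Dab2 fl/fl), so both groups carried floxed Dab2 alleles, and by the study's methods both received tamoxifen at 75 mg/kg for 5 days. The strain was given as B6;129S4-Dab2tm1Cpr/J. The keratin 14 promoter drives CreER in basal epithelial cells and their appendages, so other cells of the skin keep their Dab2 alleles. The sort removed dead cells with propidium iodide and gated on CD34 and α6-integrin, and no stain against leukocytes or endothelial cells was named.

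MHC class II molecules display peptides from endocytosed proteins to CD4+ T cells. An α chain and a β chain pair in the endoplasmic reticulum with the invariant chain (Cd74), which fills the peptide groove and steers the complex to endosomes. There, proteases trim the invariant chain to a remnant called CLIP, H2-DM exchanges CLIP for peptide, and H2-O restrains H2-DM. Ciita is the coactivator that switches on class II gene transcription, and interferon-γ (IFN-γ) induces it in cells that do not express it constantly. In skin, Langerhans cells, dermal dendritic cells, macrophages and B cells carry class II constitutively, while keratinocytes do so mainly under IFN-γ.

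In the libraries labelled Dab2-cKO, 7 of the 9 genes were higher, none (0) lower, and 2 did not pass the test (edgeR quasi-likelihood test, adjusted p under 0.05 over 32149 genes). The background shares over all genes tested were 16.8% called higher and 11.5% called lower. The classical chains and Cd74 rose 3.78-fold to 4.71-fold, H2-DMa and H2-DMb1 rose 2.94-fold and 2.40-fold, and Ciita rose 1.46-fold. H2-Oa and H2-Ob did not pass the test. The median log2 fold change (Dab2-cKO over WT) was 1.55 over the 9 genes and -0.02 over all genes tested. All 9 genes passed the expression filter. In bulk libraries such as these, a change in the number of cells of a type and a change in RNA per cell cannot be told apart.

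The libraries differed in more than the class II genes. Total counts were 7040032 to 9518564 in WT and 9374373 to 11696457 in Dab2-cKO, so that 3 counts, the limit a count of 0 allows, correspond to 2.57e-05% to 4.26e-05% of a library. These limits cover counting error only. Of all counts, 33.1% to 33.9% in WT and 44.5% to 46.6% in Dab2-cKO fell on the 100 genes with the most reads, and mitochondrial genes held 13.0% to 14.4% and 19.1% to 20.3%. The normalization factors of the TMM method were 1.11 to 1.21 in WT and 0.847 to 0.876 in Dab2-cKO. Dab2, the targeted gene, had normalized counts of 338, 332 and 309 in WT and 1434, 1300 and 1390 in the libraries labelled Dab2-cKO. It was therefore 4.21-fold higher in the libraries labelled Dab2-cKO (log2 fold change 2.08, SE 0.08, edgeR adjusted p = 3.04e-34). This direction is opposite to that of a deletion. Cells outside the keratin 14 lineage keep Dab2, and the summed macrophage, fibroblast and endothelial genes also rose, by ratios of 5.12, 3.24 and 3.27. The bulk Dab2 value can therefore not check the label, and the part of these cells in it was not tested. The counts cover the whole gene and not the floxed exon alone, and every direction below rests on the labels.

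Class II promoters are known for an X box, bound by the RFX complex, followed by a Y box, bound by NF-Y, and Ciita acts through the factors assembled there. Promoter stretches of 4 members are printed to show where these boxes lie, 2 with both boxes and 2 in which the printed stretch holds the Y letters alone. Promoter sequences from 250 bases before to 50 after each start (RefSeq, GRCm38.p6) were listed for 6 of the 9 genes, and each was matched once to chromosome 17 of GRCm39, whose coordinates are given. Letters chosen after these sequences were seen were searched on both strands, for X the bases AG, AC and ATG in this order with 2 unspecified bases after AG and after AC, and for Y ATTGG. The X and Y letters cannot overlap in a pair. X letters stood in 3.09% of 32851 promoters and Y letters in 37.4%. X followed by Y on 1 strand with 10 to 30 bases between was found in 23 promoters (0.07%), 3 of them those of H2-Eb1, H2-DMb1 and H2-Ob, and H2-Eb2 also carried the pair. X and Y letters are in capitals, each stretch runs 5′ to 3′ along its gene, and the first 2 lines hold the pair while the last 2 hold Y alone.
H2-Eb1, chr17:34524734-34524801, plus strand: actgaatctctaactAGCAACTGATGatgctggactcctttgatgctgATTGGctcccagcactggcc
H2-Ob, chr17:34457776-34457841, plus strand: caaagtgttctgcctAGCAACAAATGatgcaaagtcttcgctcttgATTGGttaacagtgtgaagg
H2-Aa, chr17:34506826-34506895, minus strand: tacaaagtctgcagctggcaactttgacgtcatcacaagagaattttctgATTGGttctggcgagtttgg
H2-Oa, chr17:34311260-34311329, plus strand: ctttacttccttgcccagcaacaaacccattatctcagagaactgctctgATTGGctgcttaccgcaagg

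From X to Y, 22 bases separated the letters in H2-Eb1 and 20 in H2-Ob, and Y began at position -59 and -57 from the start. H2-DMb1, not printed, had 23 bases between. Of the genes with the pair, H2-Eb1 rose 4.10-fold and H2-DMb1 2.40-fold, while H2-Ob did not pass the test and had levels within the range of stray signal. The same held for H2-Eb2 (log2 fold change 0.60, edgeR adjusted p = 0.355). H2-DMa, whose listed promoters held no X letters, rose 2.94-fold. H2-Aa and H2-Oa had Y at -48 and -43 without the X letters at that spacing. The H2-Oa promoter did hold X letters, though not in such a pair, and the H2-Aa promoter held none. A match is only a match of letters, and a promoter without one may hold a variant of the box.

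H2-Aa (ENSMUSG00000036594, GRCm39 chromosome 17, 34493404 to 34506798, minus strand) encodes the α chain of the I-A molecule. Its normalized counts (each count over its library's TMM-adjusted size, multiplied by the average such size) were 261, 277 and 316 in WT and 1055, 1088 and 1098 in Dab2-cKO. The groups did not overlap, and the lowest Dab2-cKO library stood far above the highest WT library. The means were 285 ± 28.5 and 1080 ± 22.8 (SD, n = 3 each), and the log2 fold change was 1.92 (SE 0.08, 95% confidence interval 1.75 to 2.09, edgeR adjusted p = 3.27e-31).

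H2-Ab1 (ENSMUSG00000073421, chromosome 17, 34476663 to 34488393, plus strand) encodes the β chain that pairs with H2-Aa. Its normalized counts were 462, 528 and 532 in WT and 1938, 2138 and 2110 in Dab2-cKO. Again every Dab2-cKO library lay above every WT library. The log2 fold change was 2.02 (SE 0.08, interval 1.87 to 2.17, edgeR adjusted p = 5.98e-35). No exon base of H2-Ab1 is shared with another annotated gene.

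H2-Eb1 (ENSMUSG00000060586, chromosome 17, 34504236 to 34535648, plus strand) encodes the β chain of the I-E molecule. Normalized counts of 272, 285 and 259 in WT stood against 1193, 1130 and 1021 in Dab2-cKO, without overlap. On the log2 scale the difference was 2.04 (SE 0.08, edgeR adjusted p = 1.67e-32). The α chain partner of I-E appears in the table only as the pseudogene H2-Ea-ps, as in mice of the C57BL/6 background, where it is not expressed as a protein. H2-Ea-ps had normalized counts of 20.0, 19.0 and 17.1 in WT and 4.77, 12.7 and 22.1 in Dab2-cKO, and did not pass the test (log2 fold change -0.52, SE 0.46, adjusted p = 0.473). H2-Eb1 thus rose in libraries in which reads of its α chain gene were few.

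Cd74 (ENSMUSG00000024610, chromosome 18, plus strand) encodes the invariant chain and had the most counts of the 9 genes. Its normalized counts were 660, 811 and 707 in WT and 3384, 3438 and 3445 in Dab2-cKO. The Dab2-cKO libraries lay close together and all stood above WT. The means were 726 ± 76.9 and 3422 ± 33.1 (SD, n = 3 each), a log2 fold change of 2.23 (SE 0.08, interval 2.08 to 2.39, edgeR adjusted p = 1.31e-37).

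H2-DMa (ENSMUSG00000037649, chromosome 17, 34338515 to 34358958, plus strand) encodes the α chain of H2-DM, the peptide exchanger. Its normalized counts of 70.1, 62.3 and 47.8 in WT rose to 165, 191 and 170 in Dab2-cKO, with no overlap. This gave a log2 fold change of 1.55 (SE 0.17, interval 1.22 to 1.89, edgeR adjusted p = 2.59e-12).

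H2-DMb1 (ENSMUSG00000079547, chromosome 17, 34372046 to 34379204, plus strand) encodes a β chain of H2-DM. Its normalized counts were 62.4, 73.1 and 55.5 in WT and 155, 167 and 136 in Dab2-cKO, so the groups stood apart. Its log2 fold change was 1.26 (SE 0.17, edgeR adjusted p = 3.83e-09). H2-DMb2, the neighbouring β chain gene, rose from 53.8 ± 6.47 to 84.3 ± 8.24 (SD, n = 3 each, log2 fold change 0.65, SE 0.21, edgeR adjusted p = 0.0120), a call lost in 5 of 13 alternative analyses. The 2 β chain genes share sequence, since 11.3% of the 100-base windows of H2-DMb1 transcripts also occur in H2-DMb2, so reads of those windows cannot be assigned with certainty. None of the other 8 genes shared such a window with another gene.

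H2-Oa (ENSMUSG00000024334, chromosome 17, 34311314 to 34314328, plus strand) encodes the α chain of H2-O, the H2-DM inhibitor found mostly in B cells and thymus. Only 20, 18 and 44 reads were counted in WT and 33, 17 and 21 in Dab2-cKO. Normalized counts were 22.3, 16.3 and 37.6 against 31.5, 19.6 and 23.2, which overlapped. The log2 fold change was -0.04 (SE 0.35, edgeR adjusted p = 0.962), with an interval from -0.74 to 0.67 that leaves both directions possible. An opposite-strand gene covers 25.9% of its exon bases.

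H2-Ob (ENSMUSG00000041538, chromosome 17, 34457836 to 34473388, plus strand) encodes the β chain of H2-O. Its normalized counts were 65.7, 65.0 and 63.2 in WT and 46.7, 39.1 and 50.8 in Dab2-cKO. Here the order was turned, with every Dab2-cKO library below every WT library. The log2 fold change of -0.50 (SE 0.23, interval -0.96 to -0.04) did not pass the test (edgeR adjusted p = 0.104), although it did in 3 of 13 alternatives.

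Ciita (ENSMUSG00000022504, chromosome 16, 10297923 to 10347694, plus strand) had normalized counts of 140, 166 and 156 in WT and 245, 205 and 226 in Dab2-cKO. The groups did not overlap, but the gap was smaller than for the chains. The log2 fold change was 0.55 (SE 0.13, interval 0.29 to 0.80, edgeR adjusted p = 0.000379). When libraries were scaled by total count only, the median of all genes moved to -0.45, the value for Ciita was 0.12 (adjusted p = 0.458), and the call was lost.

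**Figure D1:**
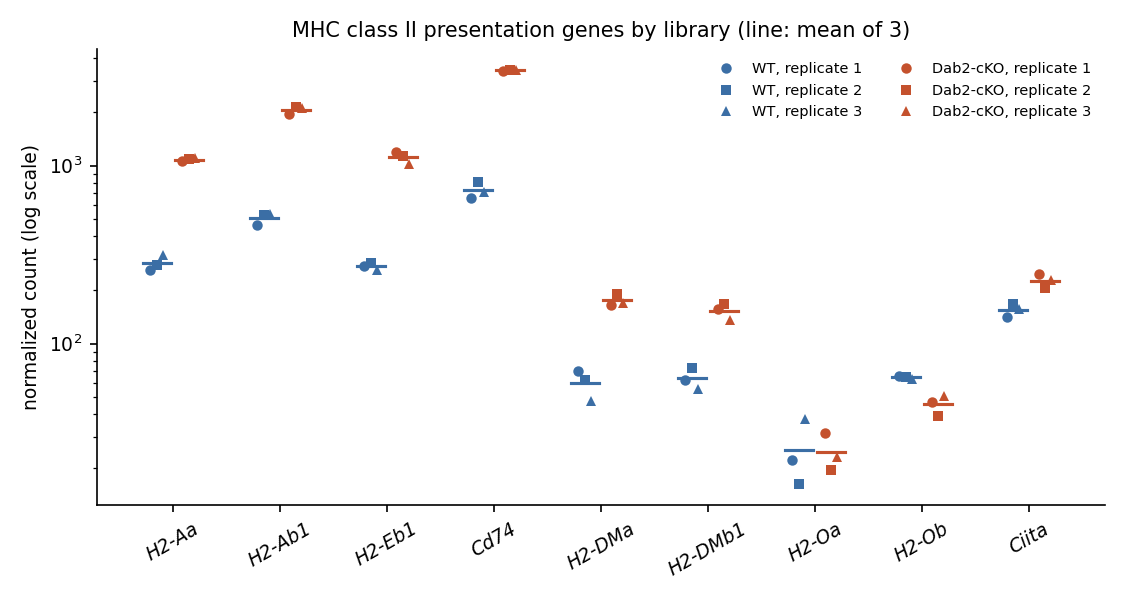
Normalized counts (log scale) of the 9 class II genes in each library, WT in blue and Dab2-cKO in red, with a line at the mean of 3. The 3 Dab2-cKO points lie above the 3 WT points for 7 genes, below them for H2-Ob, and among them for H2-Oa. Over all genes tested, 16.8% were called higher and 11.5% lower, and the share whose groups stand apart is not given.

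Levels can be compared between genes only per length, so normalized counts were divided by the kilobases (kb) of annotated exon. In WT the order was Cd74 with 289 normalized counts per kb, H2-Ab1 with 198, H2-Eb1 with 105, H2-Aa with 66.3 and H2-DMb1 with 37.9, and none of these neighbours overlapped over the libraries. H2-Oa (16.6), Ciita (14.0), H2-DMa (13.9) and H2-Ob (11.9) followed, each overlapping its neighbour. In Dab2-cKO the first 5 places were the same, at 1361, 803, 429, 252 and 90.8 per kb. H2-DMa came next at 40.5, above Ciita (20.4) and H2-Oa (16.2), which overlapped, and H2-Ob stood last at 8.39.

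As a yardstick of stray signal, 1742 olfactory, vomeronasal and trace amine receptor genes, which are not known as genes of hair follicle cells, had a median of 5.00 and a 95th percentile of 12.8 normalized counts per kb, and 98.2% of them had at least 1 count. H2-Ob was under that percentile in both groups, and at its length an even background would give 27.2 normalized counts. The other 8 genes were above it in both groups, though Ciita, H2-DMa and H2-Oa were close to it in WT. Opposite-strand genes cover part of the exons of H2-DMb1 (16.95% of bases), H2-DMa (11.8%, by Brd2), H2-Eb1 (9.55%), Ciita (5.73%) and H2-Aa (2.75%), and reads of such stretches may belong to either gene.

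The make-up of the class II transcript pool shifted between the groups. Per kb, Cd74 made up 37.2% to 40.4% of the summed level of the 9 genes in WT and 44.5% to 45.6% in Dab2-cKO, whereas H2-Ab1 stayed within 25.3% to 27.4% in both. The ratio of H2-Aa to H2-Ab1, partners in I-A, came to 0.336 ± 0.0207 in the WT libraries and 0.314 ± 0.0107 in those of Dab2-cKO (SD, n = 3 each), with overlap. H2-Eb1 per H2-Ab1 was 0.532 ± 0.0503 and 0.537 ± 0.0663, also overlapping. Cd74 per H2-Ab1 was 1.46 ± 0.105 against 1.70 ± 0.0755, with every Dab2-cKO library above WT. Thus the chains kept their proportions within the spread of the libraries, while the invariant chain stood higher relative to H2-Ab1. No test was run on these ratios.

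The coactivator and the peptide exchanger stood lower relative to the chains and Cd74 in Dab2-cKO. Ciita per H2-Ab1 (both per kb) was 0.0707 ± 0.00242 in WT and 0.0256 ± 0.00361 in Dab2-cKO. H2-DMa per Cd74 was 0.0485 ± 0.0117 and 0.0297 ± 0.00219. In both ratios each Dab2-cKO library lay below each WT library. In WT, however, Ciita (14.0 per kb) and H2-DMa (13.9) were close to the 95th percentile of the receptor genes (12.8). Stray signal may therefore raise the WT ratios, and its share in the difference was not tested.

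Other genes of the class II pathway were taken from a list of 27, all of which were tested. Of these, 13 were higher, 2 were lower, and the median log2 fold change was 0.40. Among 6 antigen processing enzymes, 4 rose. Ctss (cathepsin S), the protease that trims the invariant chain in antigen presenting cells, had normalized counts of 118, 125 and 122 in WT and 1223, 1263 and 1220 in Dab2-cKO. No other gene of that list had a larger change, with a log2 fold change of 3.34 (SE 0.09, edgeR adjusted p = 3.68e-43). Per kb, Ctss per Cd74 was 0.0798 ± 0.00620 in WT and 0.171 ± 0.00319 in Dab2-cKO. Ctsl (cathepsin L), which does this trimming in thymic epithelium, fell from 1417 ± 108 to 1082 ± 17.9 (log2 fold change -0.39, edgeR adjusted p = 6.96e-06). The asparagine endopeptidase Lgmn (log2 fold change 1.28), the thiol reductase Ifi30 (1.32) and the cathepsin Ctsd (0.31) also rose, whereas the value for Ctsd turned to -0.12 when libraries were scaled by total count only.

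All 5 genes listed for the IFN-γ route to Ciita were higher. The receptor chains Ifngr1 and Ifngr2 had log2 fold changes of 1.21 and 0.84, the kinases Jak1 and Jak2 1.18 and 0.58, and the transcription factor Irf1 1.69. The call for Jak2 was lost with scaling by total count only (0.15, adjusted p = 0.116). Irf1, for example, had 69.6 ± 15.6 normalized counts in WT and 224 ± 13.9 in Dab2-cKO (n = 3 each). Opposite-strand genes cover 46.0% of its exon bases, so part of these reads may belong to them. Its WT level, 14.9 per kb, was close to the 95th percentile of the receptor genes (12.8). IFN-γ signalling itself acts on proteins and was not measured. Of 7 factors that assemble on class II promoters, 0 were higher, 1 was lower and 6 did not pass, counts near the background shares of 16.8% and 11.5%. Rfx5, the DNA-binding RFX subunit, had 141 ± 31.2 normalized counts in WT and 137 ± 11.7 in Dab2-cKO (log2 fold change -0.05, SE 0.15, edgeR adjusted p = 0.879), and was called lower with scaling by total count only (-0.47, adjusted p = 0.00804). Creb1 was lower by a small margin (log2 fold change -0.20, adjusted p = 0.0391), a call lost in 5 of 13 alternatives.

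Both ubiquitin ligases of class II turnover rose, Marchf1, which removes class II from the surface of dendritic cells and B cells, by a log2 fold change of 1.17 and Marchf8 by 0.40, the latter reaching -0.03 with scaling by total count only. Of 4 costimulatory genes, Cd86, a ligand of CD28 on T cells, was higher (log2 fold change 1.24, edgeR adjusted p = 5.33e-07), and Cd40, Cd80 and Cd83 did not pass. In WT, Marchf1 (10.4 per kb) and Cd86 (12.4) were not above the 95th percentile of the receptor genes (12.8), so their fold changes rest on WT levels within the range of stray signal. Of 3 other class II chain genes, only H2-DMb2 was called.

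**Figure D2:**
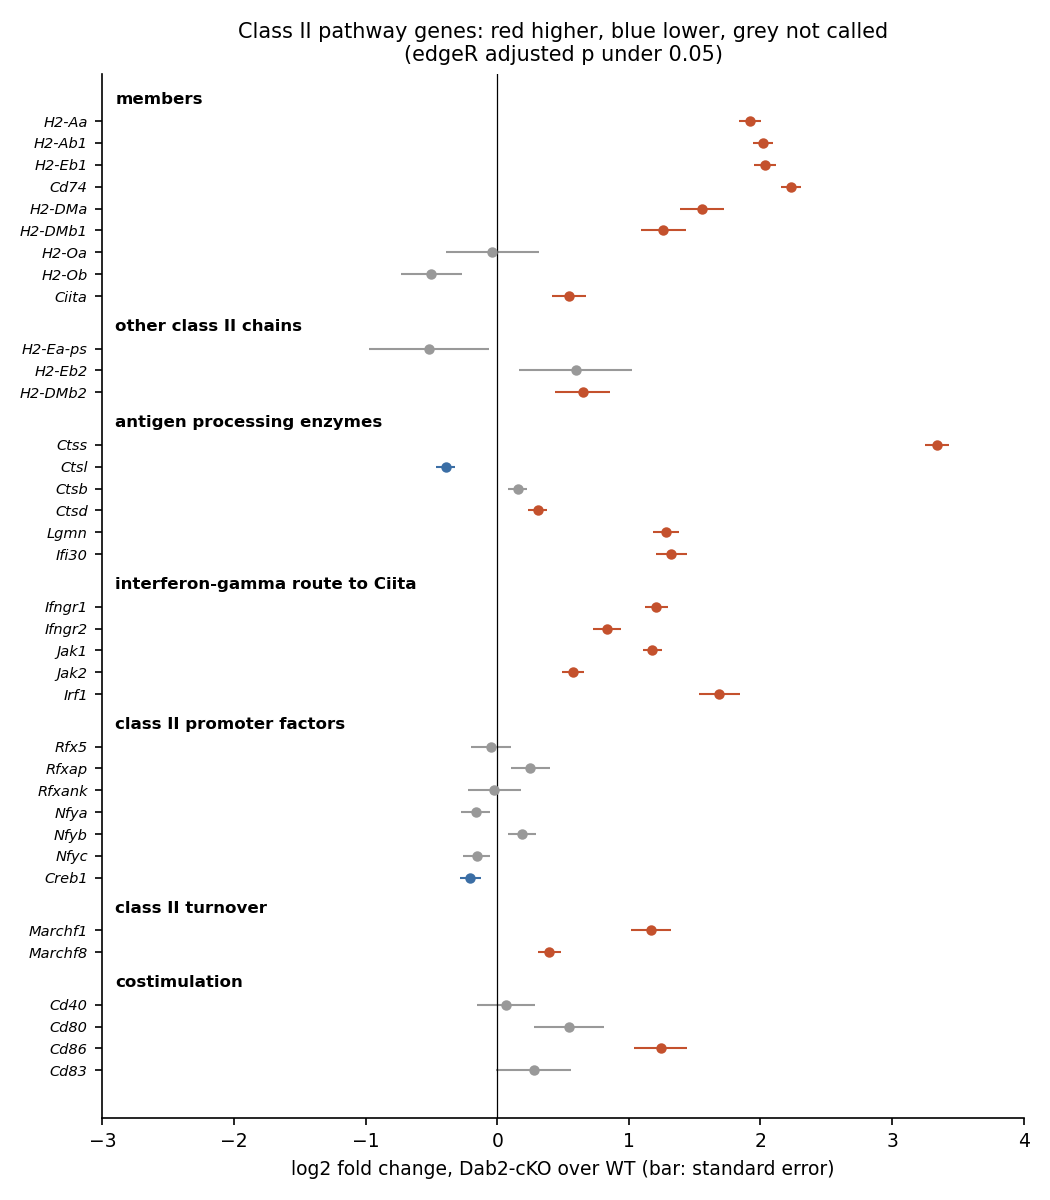
Log2 fold change (Dab2-cKO over WT) with its standard error for the 9 class II genes and 27 other genes of the pathway, grouped by role, with genes called higher in red, lower in blue and not called in grey. Ctss lies farthest right at 3.34, and the class II promoter factors lie near 0.

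Of the 9 genes, 7 lie on chromosome 17 within 224 kb (34311314 to 34535648), with 14 other annotated genes between them, 9 of which were tested. Of these 9, 5 were higher and 0 were lower. The 5 included H2-DMb2 and 4 genes of class I antigen processing. Psmb8, an immunoproteasome subunit, rose from 65.9 ± 6.01 to 417 ± 61.3 normalized counts (log2 fold change 2.66, SE 0.13), Tap1, a peptide transporter chain, had a log2 fold change of 1.55, and Psmb9, another immunoproteasome subunit, 1.32. Tap2 had a log2 fold change of 1.29. Brd2, a bromodomain gene within the same interval, did not pass the test (log2 fold change 0.17, SE 0.07, edgeR adjusted p = 0.0718). Genes that passed and genes that did not were interleaved, with H2-Ob between Tap2 and H2-Ab1, and H2-Oa at one end.

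**Figure D3:**
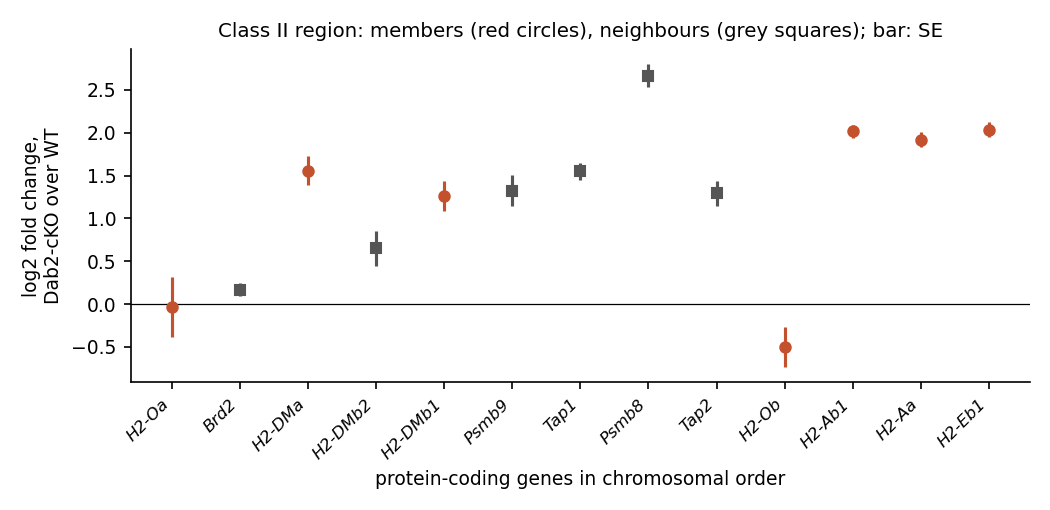
Log2 fold change (Dab2-cKO over WT, with SE) of the protein-coding genes of the class II region in chromosomal order, class II members as red circles and neighbours as grey squares. H2-Oa, Brd2 and H2-Ob lie near or below 0 beside genes that rose.

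Because class II genes are constitutive in antigen presenting cells, markers of cell types that a sort could hold are given beside them. The summed normalized count of the 9 class II genes was 2015 to 2284 in WT and 8213 to 8416 in Dab2-cKO, a ratio of 3.85. All 10 pan-leukocyte genes were higher, and their sum went from 932 to 988 in WT up to 3051 to 3149 in Dab2-cKO, a ratio of 3.27. Ptprc (CD45) rose from 238 ± 6.14 to 683 ± 36.5 (log2 fold change 1.52), Lcp1 by a log2 fold change of 1.93 and Itgb2 by 1.09. Their part in the class II result was not tested.

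Among 12 macrophage genes, 11 were higher and Cx3cr1 did not pass. Their sum was 1699 to 1827 in WT and 8785 to 9079 in Dab2-cKO, a ratio of 5.12. The mannose receptor Mrc1 rose from 349 ± 32.8 to 2047 ± 152 (log2 fold change 2.55), Lyz2 by 2.53, Cd163 by 2.17 and Adgre1 (F4/80) by 1.94 on the same scale. Thus the macrophage sum rose by a larger ratio than the class II sum, and both sums weigh abundant genes most. By gene the log2 fold changes overlapped. They ran from -0.22 to 3.02 (median 2.17) for the macrophage genes and from -0.50 to 2.23 (median 1.55) for the class II genes.

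Of 10 Langerhans and dendritic cell genes, 4 were higher (Cd207, Batf3, Clec9a and Zbtb46) and 0 lower, and the sum was 537 to 599 in WT and 720 to 819 in Dab2-cKO, a ratio of 1.35. Per kb, only 4 of the 10 in WT and 6 in Dab2-cKO exceeded the 95th percentile of the receptor genes, so much of this sum was within the range of stray signal. Of the called genes, Batf3 (12.1), Clec9a (11.6) and Zbtb46 (9.59) were under that percentile in WT, and Zbtb46 also in Dab2-cKO (12.2). Opposite-strand genes cover 77.1% of the exon bases of Clec9a and 29.4% of those of Batf3, so part of these reads may belong to them. Cd207 (langerin), the defining gene of Langerhans cells, rose from 62.3 ± 3.56 to 148 ± 12.7 (log2 fold change 1.24, SE 0.17, edgeR adjusted p = 5.59e-09). Itgax (CD11c) had 102 ± 7.10 and 112 ± 24.0 normalized counts and did not pass (adjusted p = 0.675). The number called was 2 with DESeq2, with upper-quartile scaling, without WT replicate 2 and without Dab2-cKO replicate 2. It was 1 under scaling by total count only or a stricter filter (mean count 50 or more), and the call for Zbtb46 (log2 fold change 0.36, adjusted p = 0.0372) was lost in 9 of 13 alternatives.

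None of 6 B cell genes was called, although 1 was called lower with upper-quartile scaling and with a filter at a mean of 50 counts, 2 without Dab2-cKO replicate 2, and 3 with scaling by total count only. Their sum was 226 to 320 in WT and 211 to 241 in Dab2-cKO, a ratio of 0.858, and per kb 2 of the 6 exceeded the 95th percentile of the receptor genes in WT and 0 in Dab2-cKO. Cd79a had 13.3 ± 3.88 and 14.2 ± 6.08 normalized counts. Ms4a1 (CD20) and Pax5 had log2 fold changes of 0.25 and -0.22, and Cd22 of -0.56 (adjusted p = 0.0701), which passed in 4 of 13 alternatives. B cell genes and H2-Oa and H2-Ob, which B cells are known to express, were thus low together in both groups. Of 7 T cell genes, Cd3g was higher (log2 fold change 1.11), while Cd3e (0.42) and Lck (0.12) did not pass, and the sum was 324 to 360 and 421 to 509.

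Genes of other skin cells moved as well. All 8 endothelial genes (ratio of sums 3.27) and all 7 fibroblast genes (3.24) were higher, with Pecam1, Cdh5 and Vwf at log2 fold changes of 1.88, 1.84 and 1.54. Col1a1 went from 46086 to 135934 normalized counts (1.56), and Col1a2 and Col3a1 had log2 fold changes of 1.52 and 1.98. Among 12 bulge stem cell genes, 8 were higher and 4 were lower (log2 fold changes in brackets). The higher ones were Krt15 (0.84), Krt5 (0.62), Krt14 (0.85), Nfatc1 (1.32), Col17a1 (1.01), Tcf7l1 (0.37), Cd34 and Itga6. The lower ones were Sox9 (-1.45), Lhx2 (-1.43), Lgr5 (-1.32) and Tbx1 (-1.99). Krt5 and Krt14 mark basal keratinocytes in general. Of the genes of the sort gate, Cd34 had 510 ± 53.2 normalized counts in WT against 1780 ± 35.6 in Dab2-cKO, and Itga6 (α6-integrin) had 960 ± 41.5 against 1409 ± 47.8 (n = 3 each). Transcripts of fibroblasts, vessels and leukocytes were present in both groups, and those of fibroblasts were not minor. Per kb, Col1a1 had 7018 normalized counts in WT and 20700 in Dab2-cKO, above Krt14 at 3403 and 6122. Col1a2 (2291 and 6592) and Col3a1 (3278 and 12937) were below Krt14 in WT and above it in Dab2-cKO. No gene of any of these lists was at or under the floor of 3 counts in all libraries of a group. The part of these cells in the class II result was not tested.

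**Figure D4:**
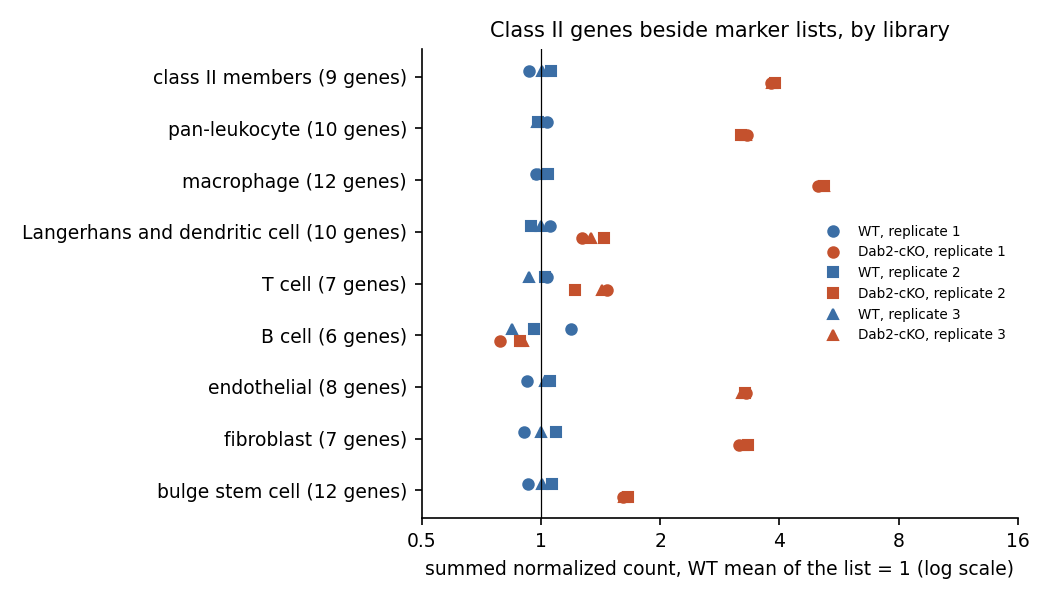
Summed normalized count of each gene list in each library, divided by the mean of the 3 WT libraries (log scale), with WT in blue and Dab2-cKO in red. The class II sum rose by a ratio of 3.85, between the pan-leukocyte (3.27) and macrophage (5.12) lists, whereas the Langerhans and dendritic cell list rose by 1.35 and the B cell list was at 0.858.

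Class II transcript per leukocyte transcript was then compared, as a description without a test. The summed class II count divided by the pan-leukocyte sum was 2.04, 2.45 and 2.33 in WT and 2.61, 2.76 and 2.64 in Dab2-cKO. All Dab2-cKO libraries were above WT, by 1.17-fold on average. This step follows from the ratios of the class II sum (3.85) and the pan-leukocyte sum (3.27). The endothelial and fibroblast sums rose by similar ratios (3.27 and 3.24), so a small step is not particular to leukocytes. Which cells the class II transcripts came from was not tested. The change in the ratio depended on the denominator. Divided by the macrophage sum, the values were 1.19, 1.25 and 1.26 in WT and 0.935, 0.928 and 0.912 in Dab2-cKO, that is, lower by a log2 ratio of -0.41. Per Ptprc alone they were 8.70, 9.51 and 8.93 against 12.2, 12.9 and 11.5, higher by 1.35-fold, but Ptprc in WT, at 12.7 normalized counts per kb, was not above the 95th percentile of the receptor genes (12.8). With the Langerhans and dendritic cell sum, a denominator added after the data were seen, they were 3.36, 4.25 and 3.83 against 11.4, 10.3 and 10.9, higher by 2.85-fold, on the low levels of that list given above.

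**Figure D5:**
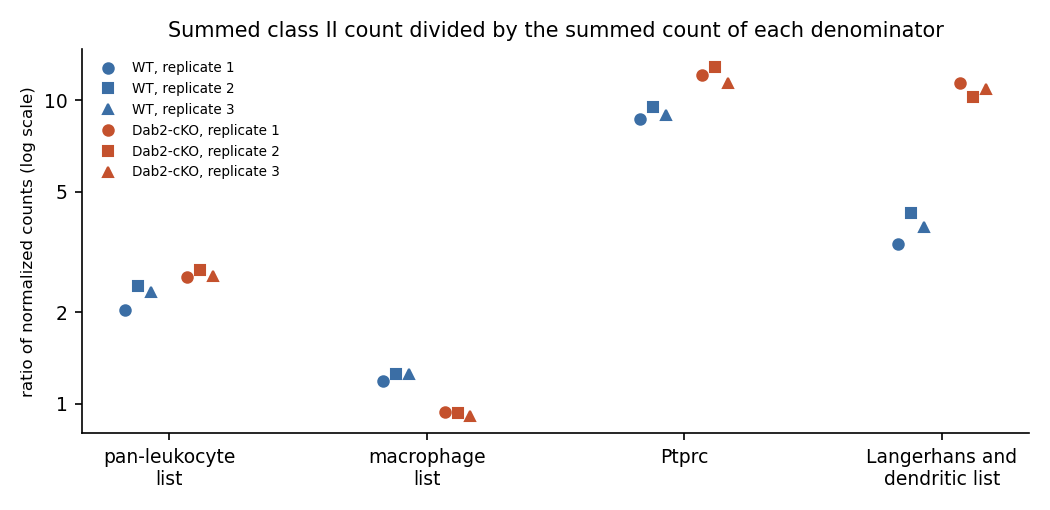
Summed class II count divided by the summed count of 4 denominators in each library (log scale), WT in blue and Dab2-cKO in red. The Dab2-cKO libraries lie above WT for the pan-leukocyte list, Ptprc and the Langerhans and dendritic cell list, and below WT for the macrophage list.

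The pattern over the 6 libraries was shared by many genes. Among 14772 genes whose normalized counts averaged 50 or more, 2793 had a Pearson correlation above 0.95 with the summed class II level. The 5 closest were Mgll (a monoacylglycerol lipase), Pck1 (a gluconeogenic enzyme), Krt10 (a keratin of suprabasal epidermis), Myh1 (a fast skeletal muscle myosin) and Elovl4 (a fatty acid elongase), each with r of at least 0.9999 over the 6 libraries. The points form 2 groups of 3, so any gene with a similar step between the groups and little spread within them comes close. Myh1, for example, went from 6666 to 37155 normalized counts and Krt10 from 3985 to 20671.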

How the data were processed

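The authors trimmed reads of stranded total RNA libraries with fastp 0.23.4, aligned them to GRCm39 with HISAT2 2.2.1, and counted them per gene with featureCounts 2.0.6. These deposited values are raw counts. The strand and multi-mapping settings and the use of molecular identifiers were not given in the sources used here, so reads of a gene and an overlapping antisense gene cannot be told apart. A second deposited table holds the authors' DESeq2 comparison (fold changes, p-values, scaled counts) and was not used. Columns named FL-FL were assigned to Dab2-cKO by the series title. Every direction depends on this.

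Counts were analysed in R 4.3.3 with edgeR 4.0.16 (default expression filter, TMM, robust quasi-likelihood test on genotype, Benjamini-Hochberg adjustment over all genes tested). The code was tested on simulated data. DESeq2 1.42.0, other scalings and filters, a replicate block and leaving out each library were alternatives. Samples with the same replicate number did not deviate together. The study calls the libraries independent biological replicates but does not say whether each is a separate animal, so p-values measure the spread between these samples. Exon lengths came from GENCODE annotation on GRCm39. Marchf1 and Marchf8 were matched by gene identifier because their symbols had become dates. Text names all members, the called pathway genes with Ctss, Rfx5 and Ifngr1, the 3 most abundant genes of each marker list with Cd207, Cd79a, Adgre1, Itgax and Ptprc, Dab2, the neighbours on chromosome 17 with the 3 largest changes, and the 5 genes most like the class II sum. One further gene of the pathway was left out of the lists and their counts and is not reported here. Further genes (H2-Ea-ps, Brd2, Tap2, Cx3cr1, Cd40, Cd80, Cd83, and called markers) were named after their values were seen. The members and lists were chosen with earlier results of these data known.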

Additional observations from a re-analysis of the deposited data

How the results depend on the processing

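The count of class II genes called higher was 7 in 12 of 13 alternatives and 6 with scaling by total count only, where Ciita was lost. One class II gene was called lower, against 0, with upper-quartile scaling, with scaling by total count only, and with a filter at a mean of 50 counts, and this 1 gene was H2-Ob (log2 fold change -0.64, -0.93 and -0.59, adjusted p = 0.0275, 0.000783 and 0.0258). The number of other pathway genes called lower was 2, and became 1 with DESeq2, 4 with upper-quartile scaling, 6 with scaling by total count only, 4 with the filter at a mean of 50, and 1 to 2 when a library was left out. The log2 ratio of class II to pan-leukocyte counts was 0.23 (0.16 to 0.29 without 1 library), -0.41 per macrophage sum, 0.43 per Ptprc and 1.51 per Langerhans and dendritic cell sum. Scaling moved the median log2 fold change of all genes to -0.17 (upper quartile) and -0.45 (total count only), and the calls from 5387 higher and 3682 lower to 4281 and 5561, and to 2686 and 11168. Replicate numbers did not pair the libraries (correlations 0.07, -0.02 and 0.06). A fit with a replicate block called 5347 genes higher and 3620 lower, with 7 class II genes higher and 0 lower, and 13 and 2 of the other pathway genes.

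Values that changed sign are these log2 fold changes. Leaving out 1 library gave -0.27 to 0.39 for H2-Oa (above 0 without WT replicate 3, and 0.075 without Dab2-cKO replicate 2), -0.13 to 0.17 for Rfx5, -0.086 to 0.20 for Itgax, -0.30 to 0.34 for Cd79a (and -0.11 without WT replicate 3) and -0.077 to 0.18 for Lck. With scaling by total count only they were -0.12 for Ctsd, -0.031 for Marchf8, -0.072 for Zbtb46, -0.30 for Itgax, -0.33 for Cd79a, -0.18 for Ms4a1, -0.0085 for Cd3e and -0.31 for Lck. Upper-quartile scaling gave -0.018 for Itgax, -0.044 for Cd79a and -0.020 for Lck. Of 674 values over 52 named genes, 627 kept their direction and side of the threshold. The cause of these changes was not tested. H2-Oa had 17 to 44 reads per library.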
